A study of Mus musculus with 7 samples.

Results

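Fibroblasts, the cells that make and maintain the connective tissue matrix around the ducts, were 1993 of the 13684 mammary cells (14.6%) sequenced from 7 mice. They were chosen by the cell type name that the authors gave each cell, and their UMI counts were summed per mouse, so that the mouse was the replicate. The cells came from dissociated abdominal (#4) mammary glands, lymph nodes removed, of nulliparous females in diestrus, whose background mixed FVB, 129 and C57BL/6J. The young group was 3 mice (Young A, B and C) aged 3 to 4 months, and the aged group was 4 mice (Aged A, B, C and D) aged 13 to 14 months, with 1 droplet (10x 3′ v2) library per mouse and no treatment or engineered allele. The comparison asks how the expression of stromal fibroblasts differs between these ages.

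Fibroblasts secrete fibrillar collagens, elastic fibres, proteoglycans and fibronectin, and in the mammary gland they also send growth factors and chemokines to the epithelium, to vessels and to immune cells. In several tissues they fall into a Pi16-expressing state found around vessels and in fascia, and a Col15a1-expressing state that makes basement membrane components. Cells under proteotoxic or oxidative stress induce chaperones through heat shock factors and detoxifying enzymes through NRF2, in any cell type.

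The numbers of fibroblasts differed widely between mice. Young A, B and C gave 581, 184 and 1034 of them, 1799 in all, with 2672598, 867978 and 4945184 UMIs. Aged A, B, C and D gave 121, 41, 15 and 17, 194 in all, with 580088, 173823, 78978 and 109379 UMIs, so that 3 UMIs, taken as the limit of detection, were worth 0.607 to 3.46 CPM (counts scaled to the library total) in a young mouse and 5.17 to 38.0 CPM in an aged mouse. Counts per gene are therefore less precise in aged mice, and least so in Aged C and Aged D. The limit was 5.17, 17.3, 38.0 and 27.4 CPM in Aged A, B, C and D. An aged level printed below it rests on fewer than 3 UMIs and is uncertain. The log2 CPM of pairs of young mice correlated across genes at r = 0.948 to 0.964 and those of pairs of aged mice at 0.628 to 0.845. Of the cell barcodes, 101 were present in more than 1 library, and 20 fibroblasts carried such a barcode. The median UMIs per fibroblast were 4295, 4468 and 4470 in young mice and 4425, 3757, 5066 and 6038 in aged mice, which overlapped (exact two-sided permutation test over the 35 divisions of the mice, p = 0.6, adjusted p = 0.8 over 4 cell measures, where the smallest possible p is 0.0286). Mitochondrial UMIs of the median fibroblast were 2.23% ± 0.125 in the 3 young mice and 2.00% ± 0.0987 in the 4 aged ones (mean ± SD) (same exact test, p = 0.0857, adjusted p = 0.171).

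The label held against the markers fixed for it. Col1a1, Col1a2 and Col3a1, which encode the chains of the fibrillar collagens I and III, and Pdgfra, a growth factor receptor of mesenchymal cells, had their highest mean level in fibroblasts among the 13 cell types. Col1a1 was at 1344 ± 314 CPM (SD, n = 7 mice) against 128 ± 120 CPM in NK cells, the next type. Col1a2 was at 1971 ± 466 CPM against 195 ± 108 in Ma macrophages, and Col3a1 at 1970 ± 1071 against 275 ± 242 in the same type. The margin was smallest for Pdgfra, 169 ± 35.3 CPM against 58.2 ± 57.4 in NK cells, a 2.90-fold difference.

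Beyond these markers, 2258 genes reached a mean of 50 CPM in fibroblasts, and 437 of them were highest there. Of these, 94 stood at least 5-fold and 4 at least 20-fold above the next type. These 4 were Sfrp5, a secreted Wnt antagonist (83.9 against 0.537 CPM in dendritic cells), Pla1a, a secreted phospholipase (378 against 13.7), Cd248, the transmembrane glycoprotein endosialin (283 against 12.2), and Pcolce2, an enhancer of procollagen processing (415 against 18.3). Sfrp5 was absent from at least 1 mouse, and the other 3 were detected in every mouse. Large margins were also found for Igfbp6, an IGF-binding protein (3163 against 168 CPM in Ma macrophages), Clec3b, which encodes tetranectin (2476 against 143), Pi16, a secreted peptidase inhibitor (1819 against 103), and Dpt, which encodes the matrix protein dermatopontin (1004 against 73.6). These levels describe the named type and are not tested, since the names were drawn from the same expression data.

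**Figure D1:**
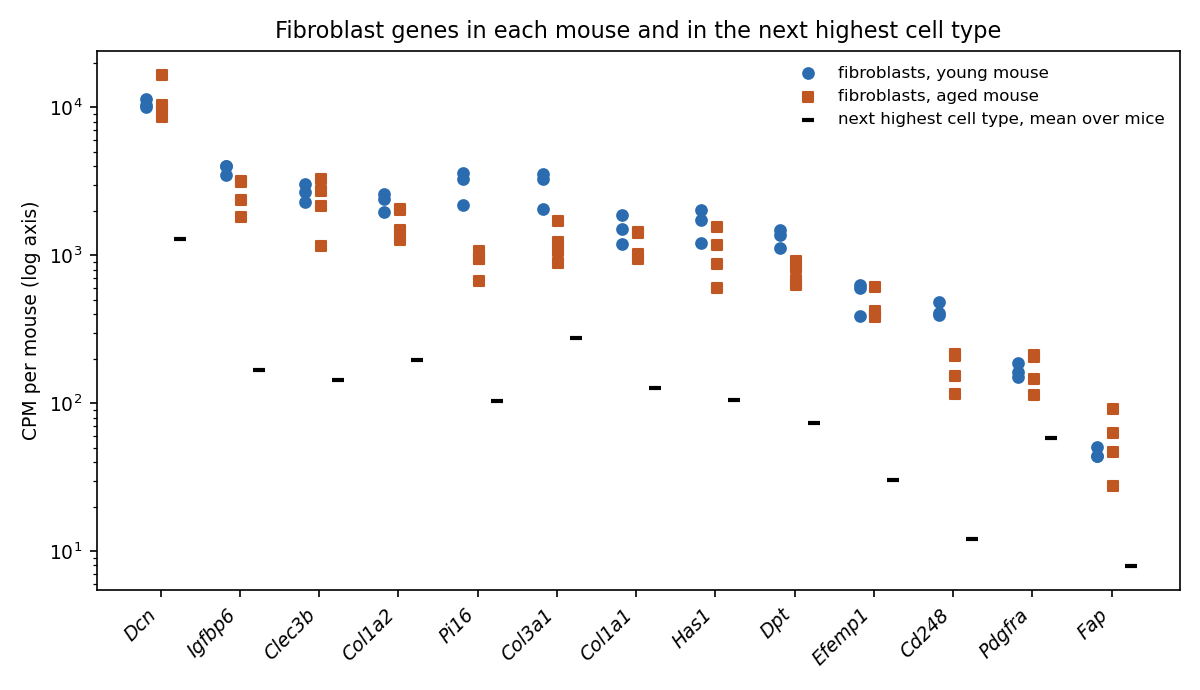
Fibroblast levels of 13 genes in each of the 7 mice (CPM on a log axis; circles young, squares aged), with a black dash at the mean of the next-highest cell type. Cd248 lies 23.3-fold above its next type on average, and Pi16 and Cd248 show the aged mice below the young ones.

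Contractile genes, which mark myofibroblasts, muscle-like cells and pericytes, were low in fibroblasts. Acta2, smooth muscle actin, averaged 26.5 CPM in fibroblasts against 3827 CPM in myoepithelial cells and 2872 CPM in pericytes, and Myh11, smooth muscle myosin, averaged 4.32 against 289 in pericytes. Mylk, a myosin kinase, had too few counts for the test, and Myl9, a myosin light chain, was at 52.0 to 76.6 CPM in young and 12.9 to 90.8 CPM in aged mice (log2 -0.21 ± 0.37, adjusted p = 0.811). Summed over the 8 listed contractile genes, the level was 96.8 to 232 CPM in young and 109 to 174 CPM in aged mice. Of the 3 members with enough counts to be tested between the ages, 0 passed edgeR's or DESeq2's test and 0 had an unadjusted p under 0.05, with Acta2 at log2 -0.20 ± 0.80 (SE).

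Markers of other cells were low in the fibroblasts, and the sums of some lay apart between the ages (values with no test). Those of epithelium (14 genes) summed to 562 to 1361 CPM in young and 886 to 3538 CPM in aged fibroblasts, against 36235 CPM in alveolar (AV) luminal cells, so that the ages overlapped, and 12 of the 14 had a higher aged mean. Endothelial markers (9 genes) also overlapped, at 140 to 452 CPM in young and 50.6 to 150 CPM in aged mice (6199 CPM in vascular endothelial cells). The sums did not overlap for immune markers (10 genes), 116 to 557 against 34.5 to 96.5 CPM (109609 CPM in Mb macrophages), and adipocyte markers (8 genes), 28.8 to 52.8 CPM against 6.90 CPM in Aged A and 0 in the other aged mice. Pericyte markers (8 genes) were at 32.3 to 65.5 CPM in young and 17.3 to 128 CPM in aged mice, which overlapped, and the 4 mesothelial markers were at 0 in every mouse. The share of fibroblasts with a UMI of Epcam, Pecam1, Ptprc or Rgs5, which define epithelial, endothelial, immune and pericyte identity, was 18.6%, 10.9% and 14.4% in young and 36.4%, 9.76%, 33.3% and 29.4% in aged mice. Where a named gene was tested again without these cells and lost its call, this is stated with the gene.

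Between the ages, 5513 genes had enough counts for edgeR's quasi-likelihood test on the summed counts, with trimmed-mean (TMM) scaling and Benjamini-Hochberg adjustment. Calls needed an adjusted p under 0.05 together with a 1.5-fold or larger change. By this rule 113 genes (2.05% of those tested) were higher and 61 (1.11%) lower in aged fibroblasts, and the median log2 difference of all tested genes was 0.003. In 90 of the 113 and 60 of the 61 the aged and young mice did not overlap, which among all tested genes held for 386 (7%) that were higher and 491 (8.91%) that were lower. At an unadjusted p under 0.05 in the same test, 619 of the 5513 genes were higher and 481 lower. Counts at that limit in single gene lists are to be read beside these. Genes of the matrix, Krüppel-like factors and markers of the Pi16 state were among those that fell, and chaperone and heme oxygenase genes among those that rose. Without Aged C and Aged D, 84 genes were higher and 30 lower, of which 68 and 25 were among the calls above. Without the cells that held a UMI of Epcam, Pecam1, Ptprc or Rgs5, 72 were higher and 30 lower.

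Many of these genes also differed between the ages in other cell types, so each called gene was set beside the other 12 types. Among 103 of the 113 higher genes with enough counts elsewhere, 88 were also higher in the median of the other types, where 34.4% of all 5270 tested genes with such a value were higher, and 14 were so by at least 4-fold, against 18 genes (0.342%) of the 5270. Among 55 of the 61 lower genes, 50 were also lower elsewhere, as were 65.6% of the 5270, and 17 of them were so by at least 4-fold, against 52 genes (0.987%) of the 5270. With these genes left out, 99 higher and 44 lower genes remained. Age and the processing of the libraries cannot be told apart for them.

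**Figure D2:**
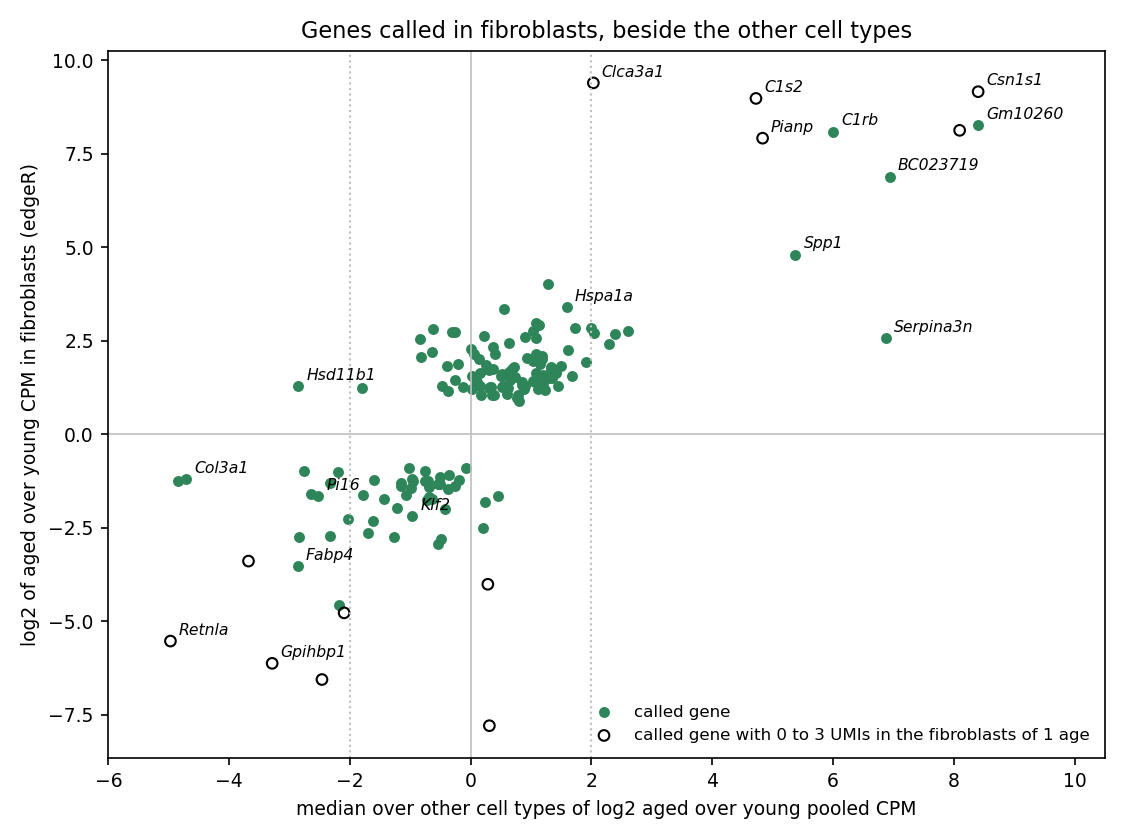
Each called gene by its log2 difference between aged and young fibroblasts (vertical axis, edgeR) and the median log2 difference of pooled CPM over the other cell types (horizontal axis). Dotted lines mark 4-fold; open circles have 0 to 3 UMIs in the fibroblasts of 1 age, so that their height depends on the prior count. Of the higher genes 88 lie right of 0, and Col3a1, Pi16 and Fabp4 lie left of the lower 4-fold line.

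Some of the genes that stood out on that plot were near-identical copies. Complement C1r and C1s are each encoded by a pair of neighbouring genes on chromosome 6 (124512405 to 124636085, GRCm38). C1rb was at 1.43, 0 and 0.839 CPM in young and 418, 273, 129 and 232 CPM in aged fibroblasts, while its copy C1ra was at 272, 335 and 285 against 416, 157, 219 and 232 CPM (log2 -0.14). C1s2 had 3 UMIs in all young and 224 in all aged fibroblasts (ratio 672, 95% interval for counting error 227 to 3285), while C1s1 was at 276, 450 and 393 against 443, 285, 451 and 293 CPM (log2 -0.01). How reads shared between copies were counted was not tested, so the calls of C1rb and C1s2 are uncertain. The submitters' notes name the same build and Cell Ranger version for every library, and whether the libraries of both ages were counted with the same annotation was not tested. In the other cell types C1rb had 0 UMIs in young and 248 in aged cells, and C1s2 had 2 and 157. Gm10260, a pseudogene of a ribosomal protein gene, was at 5.24 to 7.48 CPM in young and 1430 to 2727 CPM in aged fibroblasts, and at 199 and 136290 UMIs in other cells. BC023719 was at 0 to 0.713 CPM in young and 38.7 to 88.2 CPM in aged fibroblasts (log2 6.88 ± 0.50, adjusted p = 2.43e-06), with 1 and 1028 UMIs in other cells. Of the 57 tested genes with Gm or -ps symbols, 16 were higher and 1 lower, with a median log2 of 1.11, and of the 5359 genes that were neither these nor ribosomal or mitochondrial, 96 were higher and 60 lower.

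Other genes had no UMI in 1 age, for which only a bound can be given, against a limit of 3 UMIs over the group. By this limit Ifi202b, an interferon-inducible gene, was at least 237-fold higher in aged fibroblasts (0 UMIs in young, 99 in aged), and Clca3a1 at least 152-fold. In other cells Ifi202b had 9 UMIs in young and 739 in aged mice, and Clca3a1 had 211 and 2275. The casein genes Csn1s1 and Csn2, which encode milk proteins, were at least 120-fold and 56.6-fold higher, from 51 and 25 UMIs pooled over the aged mice. The ages overlapped for both genes, so not every aged mouse held a UMI of them in its fibroblasts. In other cells the casein genes had 5 and 0 UMIs in young against 69370 and 34170 in aged mice. In the other direction H19, an imprinted noncoding RNA, was at least 6.96-fold lower and Cldn11, a tight junction protein, at least 5.24-fold lower in aged fibroblasts. The other cells held 33 and 31 UMIs of these genes in young and 51 and 89 in aged mice.

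Fibrillar collagens, are the main tension-bearing proteins of the stroma. All 6 listed genes were tested, 2 fell and 0 rose in aged fibroblasts, and the median log2 difference was -1.11 beside 0.003 for all genes tested. Col3a1, the chain of collagen III (chr1:45311538-45349706), was at 3131, 2115 and 3691 CPM in Young A, B and C and at 986, 1793, 1250 and 1182 CPM in Aged A, B, C and D (log2 -1.20 ± 0.25, adjusted p = 0.0192). Every aged mouse was below every young one, with Aged B nearest to Young B. Col5a3, a minor chain of collagen V, was at 130, 116 and 214 CPM in young and 28.8, 66.6, 51.5 and 30.3 CPM in aged mice (log2 -1.92 ± 0.36, adjusted p = 0.00953), again with no overlap.

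Collagen I did not pass the test. Col1a1 was at 1437, 1234 and 1939 CPM in young and 1145, 1520, 966 and 1555 CPM in aged mice (log2 -0.24 ± 0.23, adjusted p = 0.614), and Col1a2 at 2304, 2024 and 2679 against 1650, 2156, 1301 and 2222 CPM (log2 -0.35 ± 0.22, adjusted p = 0.422). The ages overlapped for both chains. Left out singly, Young A, Young C, Aged A and Aged C each ended the Col3a1 call (log2 -1.16, -1.02, -1.05 and -1.18, adjusted p = 0.0518 to 0.0821), and Aged A ended that of Col5a3 (log2 -1.55, adjusted p = 0.0893). 0 of the 6 genes passed without Aged C and D (median log2 -0.86) and 0 without Aged A (median log2 -1.10), while DESeq2 called 4. Col3a1 was also lower in all 9 other cell types with enough counts (median log2 -4.72), where it had 1244 UMIs in young and 45 in aged mice. The part of this in the fibroblast difference was not tested.

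The per-cell view of Col3a1 was the same in direction. After each cell was thinned to 2000 UMIs, Col3a1 was detected in 91.7% ± 0.97 of young and 65.6% ± 7.63 of aged fibroblasts (mean ± SD of 3 and 4 mice), and in 1.14% of AV cells, which should lack it. No cell was below the thinning depth, and the median depth was 4414 UMIs in fibroblasts and 6632 in AV cells.

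The other interstitial collagens had 1 of 7 tested genes lower and 0 higher, with a median log2 of -0.04. The gene that fell was Col6a3, a chain of the beaded-filament collagen VI, at 332, 329 and 428 CPM in young and 115, 170, 193 and 162 CPM in aged mice (log2 -1.25 ± 0.24, adjusted p = 0.0121). Its partner chains did not pass, Col6a1 at log2 0.04 ± 0.28 and Col6a2 at -0.04 ± 0.36. Col6a3 did not pass without Young C or without Aged A (log2 -1.11 and -1.04, adjusted p = 0.0632 and 0.0689), nor with the counts of each mouse thinned to the smallest sum (log2 -0.90, adjusted p = 0.137).

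Of 9 tested basement membrane genes 2 fell and 0 rose, the median log2 was -0.66 and all 9 were below 0. Lama4, a laminin chain, was at 67.7, 87.6 and 85.4 CPM in young and 38.4, 30.3, 25.8 and 30.3 CPM in aged mice (log2 -1.24 ± 0.28, adjusted p = 0.0272). Nid1, the linker protein nidogen, was at 356, 524 and 546 against 259, 218, 258 and 212 CPM (log2 -0.997 ± 0.23, adjusted p = 0.0301). The ages did not overlap for either gene. Outside fibroblasts Lama4 was lower in all 4 types with enough counts (median log2 -0.95). Nid1 was lower in 5 and higher in 1 of 6 such types (median log2 -2.19). Neither passed without the cells holding a UMI of another type's marker (adjusted p = 0.0509 and 0.0539), nor when any mouse but Young A was left out (0.0538 to 0.126), and Nid1 did not with thinned counts (0.0563).

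Elastic fibres and their microfibrils had 3 of 14 tested genes lower, 0 higher and a median log2 of -0.41. Eln, which encodes elastin itself, was at 256, 465 and 646 CPM in young and 111, 145, 103 and 192 CPM in aged mice (3.38-fold lower, log2 -1.76 ± 0.33, adjusted p = 0.00966). Fbn1, the microfibril protein fibrillin, was at 367, 557 and 618 against 173, 96.9, 348 and 90.9 CPM (log2 -1.61 ± 0.36, adjusted p = 0.0274), with Aged C just below Young A. Mfap2, another microfibril protein, fell less (log2 -0.99 ± 0.23, adjusted p = 0.035). Eln did not pass without Aged A (log2 -1.59, adjusted p = 0.0611). Fbn1 did not pass without Young B or C or Aged A, B or D (adjusted p = 0.0652 to 0.1), nor Mfap2 without Young A, B or C or Aged A or C (0.0586 to 0.152), and neither passed with thinned counts (0.0744 and 0.159). Eln was not lower everywhere: it was lower in 4 and higher in 2 of the 6 other types with enough counts (median log2 -0.73). Fbn1 was lower in 5 and higher in 1 of 6 other types (median log2 -1.78). Mfap2 was lower in all 3 with enough counts (median log2 -2.76).

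Fn1, fibronectin, the glycoprotein that cells grip through integrins, was the 1 of 12 tested matrix glycoproteins that fell, and 0 rose (median log2 -0.36). It was at 1172, 1295 and 1693 CPM in young and 629, 430, 722 and 596 CPM in aged mice (log2 -1.23 ± 0.23, adjusted p = 0.00912). The highest aged mouse was well below the lowest young one. Fn1 was detected in 75.8% ± 6.15 of young and 42.7% ± 3.81 of aged fibroblasts thinned to equal depth, against 0.622% of AV cells. The call was lost without Young C (log2 -1.07, adjusted p = 0.054). Fn1 was also lower in 6 and higher in 1 of the 7 other types with enough counts (median log2 -1.59). Sparc, a collagen-binding glycoprotein, was at 2013 to 3647 CPM in young and 1005 to 1926 CPM in aged mice and did not pass (log2 -0.98 ± 0.26, adjusted p = 0.0626), nor did Dpt (log2 -0.72 ± 0.21, adjusted p = 0.0839).

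Other parts of the matrix showed no call. None of 8 tested proteoglycan genes passed in either direction with edgeR or DESeq2, though 3 had an unadjusted p under 0.05, and Dcn, decorin, was at 9853, 11804 and 10459 CPM in young and 11076, 17375, 10617 and 9585 CPM in aged mice (log2 0.18 ± 0.22, adjusted p = 0.703). None of 15 tested genes of collagen processing passed either (median log2 -0.13, 4 at an unadjusted p under 0.05, 1 called lower by DESeq2), with Serpinh1, the collagen chaperone, at log2 -0.11 ± 0.21. Among all 5513 genes, 619 were higher and 481 lower at that unadjusted p. Among 14 proteases and inhibitors 1 fell: Mmp23, a membrane-bound metalloprotease, at 193, 183 and 210 CPM in young and 76.7, 60.6, 38.7 and 60.6 CPM in aged mice (3.04-fold lower, log2 -1.60 ± 0.25, adjusted p = 0.00351). It stayed called with each mouse left out in turn. Among 5 hyaluronan genes 1 fell, Ugdh, which makes the UDP-glucuronic acid used for hyaluronan (log2 -1.20 ± 0.25, adjusted p = 0.0194), while Has1, a hyaluronan synthase, was at log2 -0.58 ± 0.29 and overlapped. The Ugdh call was lost without Young B, Young C, Aged B or Aged D (adjusted p = 0.0502 to 0.0906).

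**Figure D3:**
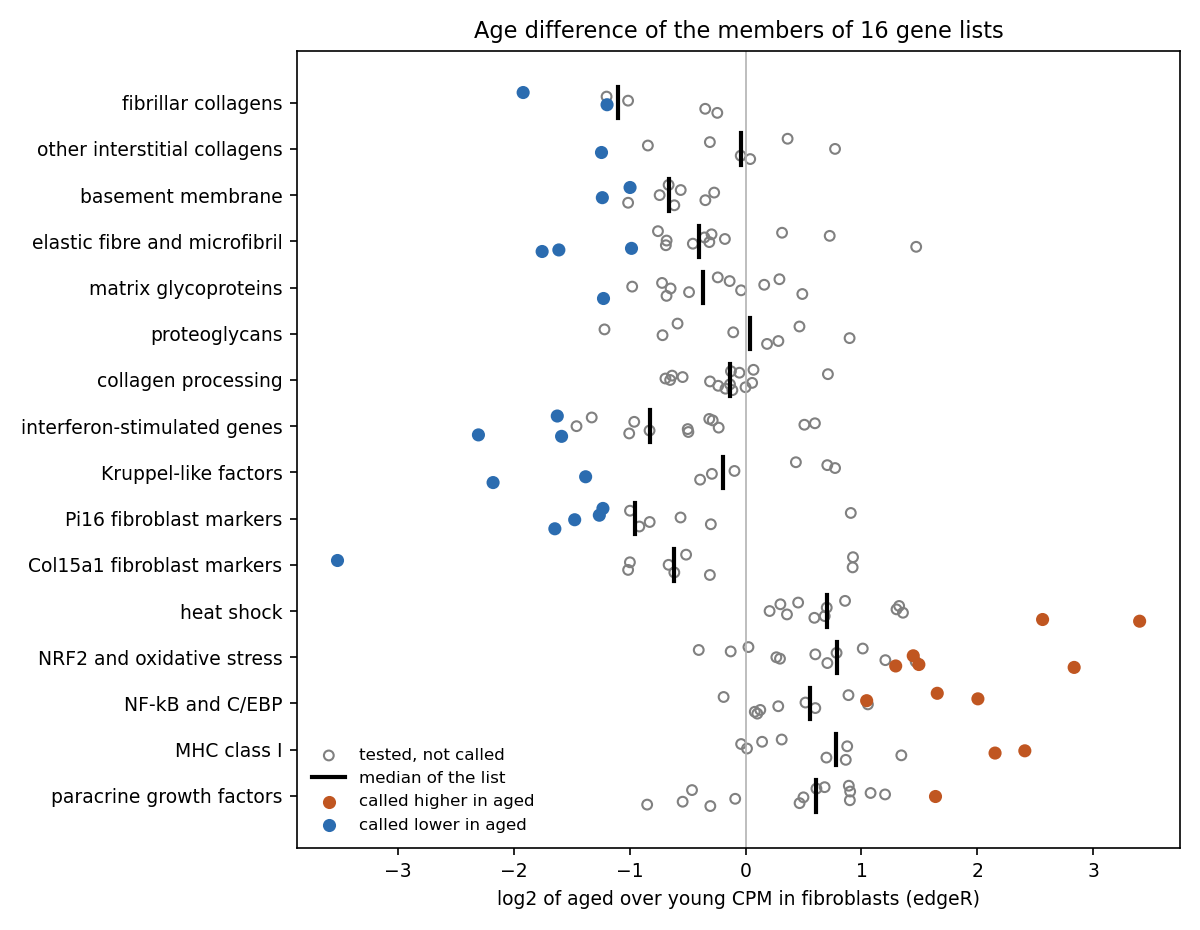
Log2 difference between aged and young fibroblasts of every tested member of 16 gene lists (points; filled when called higher or lower), with the median of each list (bar). All 6 fibrillar collagen and all 9 basement membrane genes lie below 0, and all 13 heat shock genes above it.

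The Pi16 state is read here from 10 marker genes. Of these, all tested, 4 fell and 0 rose, with a median log2 of -0.96, and the count was 4 of 10 without Aged C and D, 3 without Aged A and 3 without cells holding another type's marker. Pi16 itself was at 2094, 3364 and 3755 CPM in young and 1195, 709, 966 and 1040 CPM in aged mice (3.13-fold lower, log2 -1.65 ± 0.24, adjusted p = 0.00305). Anxa3, a membrane-binding annexin, was at 833, 925 and 1043 against 345, 242, 309 and 454 CPM (log2 -1.48 ± 0.23, adjusted p = 0.00369). Cd248, also among the most fibroblast-restricted genes above, was at 375, 501 and 420 against 171, 121, 219 and 232 CPM (log2 -1.26 ± 0.25, adjusted p = 0.0134). No aged mouse reached the lowest young one for any of them, and the fourth marker was Fn1. The Anxa3 call held in every alternative fit, and that of Cd248 was lost without Young B, without Aged A (adjusted p = 0.0783 and 0.0668) and without cells holding another type's marker (0.0507). Pi16 and Cd248 were lower also in the median of the other types (log2 -2.52 and -4.84, at 668 and 144 UMIs in young against 49 and 16 in aged cells), and Anxa3 less so (-0.38).

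In the young mice the Pi16 and Col15a1 markers marked largely different cells. At 2000 UMIs per cell, Col15a1 was detected in 5.65% of cells with a Pi16 UMI and 38.0% of cells without one (means of 3 young mice). Anxa3 was detected in 83.4% and 13.5% of them and Sema3c, a secreted semaphorin, in 45% and 3.07%. The reverse held for Col4a1, a basement membrane collagen, at 15.8% and 52.9%, for Lpl, lipoprotein lipase, at 32.8% and 70.3%, and for the chemokine gene Cxcl12 at 17.7% and 49.1%. Aged mice showed a less clear separation. Col15a1 was detected in 12%, 41.7%, 0% and 12.5% of the 50, 12, 5 and 8 cells with Pi16 in Aged A, B, C and D. Among their other cells it was detected in 16.9%, 34.5%, 20% and 22.2%.

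The share of fibroblasts with a Pi16 UMI at this depth was 55.1%, 68.5% and 66.4% in young and 41.3%, 29.3%, 33.3% and 47.1% in aged mice, against 0.664% of AV cells. The share with a Col15a1 UMI was 25.3%, 10.3% and 17.3% in young and 14.9%, 36.6%, 13.3% and 17.6% in aged mice, which overlapped. Cells with neither made up 25%, 22.3% and 20.02% of young and 48.8%, 46.3%, 53.3% and 41.2% of aged fibroblasts. With 15 and 17 cells in Aged C and D, the 95% Wilson interval of the Pi16 share, which covers counting error only, ran from 15.2% to 58.3% and from 26.2% to 69.0%. Of 9 tested Col15a1-state markers 1 fell (Fabp4) and 0 rose, with a median log2 of -0.62.

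The age differences were next read within cells that had, or lacked, a UMI of Pi16 (all UMIs, plain CPM, a description with no test). Since Pi16 itself fell, and Pi16 and Col15a1 were less clearly apart in aged mice, the same split need not pick the same kind of cell at both ages. Among cells with Pi16, 65, 16, 8 and 11 in the aged mice, Anxa3 averaged 1318 ± 115 CPM in the 3 young mice and 515 ± 47.7 CPM in the 4 aged ones (mean ± SD) and Fn1 1552 ± 253 against 785 ± 302 CPM. Col3a1 was at 2153 ± 278 against 1172 ± 361 CPM in these cells. Of 11 genes read there, 9 did not overlap between the ages, these 3 among them, while Hspa1a and Hmox1 did. All 11 were picked from genes called and without overlap in the unsplit fibroblasts of the same mice. Most were therefore expected to stay apart in either set, and the counts add no separate support. The share over all genes was not read.

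Among cells without Pi16, Col3a1 was at 4675 ± 1854 CPM in young and 1325 ± 407 CPM in aged mice, and Fn1 at 912 ± 459 against 242 ± 125 CPM. Klf2 was lower in aged mice in both sets, 2649 ± 426 against 520 ± 270 CPM with Pi16 and 2387 ± 535 against 616 ± 258 CPM without it. Its levels did not overlap between the ages in either set. In the cells without Pi16, 8 of the 11 genes did not overlap, and Anxa3 (67.3 ± 53.2 against 44.7 ± 33.1 CPM), Eln and Cebpb did.

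Krüppel-like factors are zinc finger transcription factors of quiescence and differentiation, and of 8 tested genes 2 fell and 0 rose (median log2 -0.19). Klf2 (chr8:72319033-72321656) was at 2939, 2373 and 2401 CPM in young and 641, 606, 387 and 606 CPM in aged mice, 4.53-fold lower (log2 -2.18 ± 0.22, adjusted p = 7.6e-05). The 2 ages were far apart and the spread within each was small, and the call held in every alternative fit. Klf2 was also lower in 9 and higher in 3 of the 12 other types (median log2 -0.96). Klf4 was at 1694, 3061 and 2643 against 892, 1205, 1005 and 677 CPM (log2 -1.38 ± 0.25, adjusted p = 0.00867), and was lost without Young B (log2 -1.19, adjusted p = 0.0527). Klf9, a glucocorticoid-responsive member, was at 696, 794 and 696 against 1184, 1853, 1082 and 828 CPM and did not pass (log2 0.77 ± 0.25, adjusted p = 0.116).

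Immediate early genes, which respond within minutes to growth signals and stress, had 1 of 14 tested members higher and 1 lower (median log2 0.22). Fosb, an AP-1 subunit, was at 1062, 1793 and 1761 CPM in young and 792, 793, 425 and 444 CPM in aged mice (log2 -1.29 ± 0.27, adjusted p = 0.0218), and it was lower in all 12 other types as well. Ier3, an early response gene of cell survival, was at 279, 208 and 264 against 656, 1241, 567 and 535 CPM (log2 1.59 ± 0.29, adjusted p = 0.00928) and higher in all 12 other types. The Ier3 call was lost without Young B (log2 1.49, adjusted p = 0.054), and that of Fosb without Young B, Young C, Aged C or Aged D (adjusted p = 0.0534 to 0.0884). Fos was at 4204 to 5691 CPM in young and 1108 to 4433 CPM in aged mice and did not pass (log2 -0.63 ± 0.34, adjusted p = 0.324).

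Heat shock genes encode chaperones that hold and refold damaged proteins. All 13 were tested, 2 rose, which were copies of each other, 0 fell, the median log2 was 0.70 and all 13 lay above 0. Hspa1a, the stress-inducible HSP70, was at 399, 260 and 232 CPM in Young A, B and C and 1283, 5469, 606 and 5211 CPM in Aged A, B, C and D (10.6-fold higher, log2 3.40 ± 0.62, adjusted p = 0.00912). Aged B and Aged D were at about the same level, and Aged C was the lowest aged mouse, still above all young mice. Its copy Hspa1b was at 46.7, 45 and 32.1 against 78.6, 430, 51.5 and 434 CPM (log2 2.56 ± 0.56, adjusted p = 0.0239), with the same aged mice high. The Hspa1b call was lost without Aged B, without Aged D and without each of the young mice (adjusted p = 0.0528 to 0.0804), and the Hspa1a call held with each mouse left out.

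The pair are copies in the same orientation on the minus strand of chromosome 17, with start sites 12918 bases apart (Hspa1a chr17:34969190-34972156, Hspa1b chr17:34956436-34959238, GRCm38). Reads common to both cannot be assigned with certainty, so the level of each gene is uncertain. The 250 bases before each start site (RefSeq, GRCm38.p6, minus strand, chr17:34972157-34972406 and chr17:34959239-34959488) are shown because both genes rose and both promoters hold the palindrome of heat shock factor sites, GAANNTTC, in capitals, starting 104 bases before the start site:

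Hspa1a: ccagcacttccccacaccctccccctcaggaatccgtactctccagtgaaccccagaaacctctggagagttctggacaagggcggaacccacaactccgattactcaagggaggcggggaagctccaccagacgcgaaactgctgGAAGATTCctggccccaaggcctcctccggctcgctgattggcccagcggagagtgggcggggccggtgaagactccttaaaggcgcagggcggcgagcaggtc

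Hspa1b: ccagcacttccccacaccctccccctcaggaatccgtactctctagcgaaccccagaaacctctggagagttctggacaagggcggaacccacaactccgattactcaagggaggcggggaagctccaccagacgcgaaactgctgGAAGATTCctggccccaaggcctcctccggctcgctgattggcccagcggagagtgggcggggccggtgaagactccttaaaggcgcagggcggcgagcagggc

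The stretches were identical at 247 of 250 positions (98.8%). The palindrome, which is its own reverse complement and so was read on both strands at once, was found in 2582 of 32851 mouse promoters of 300 bases (250 before and 50 after the start site), or 7.86%, and for 2442 of 27025 genes (9.04%). Among the heat shock list, 10 of 13 genes had a promoter in the table and 8 of these held it, Bag3, Dnaja1, Hspa1a, Hspa1b, Hspb1, Hspd1, Hspe1 and Hsph1. It was found in 1 of 10 genes of the elastic fibre list (Ltbp4), 0 of 14 of the NRF2 list, 0 of 7 Krüppel-like factors and 0 of 4 fibrillar collagens with a promoter. The 3-unit form of the element, the palindrome followed after 2 bases by a further GAA, read on both strands, was in 3 of the 10 heat shock genes (Hspd1, Hspe1 and Hsph1) and in 0 genes of the other lists, against 0.662% of all genes, and Hspa1a and Hspa1b did not hold it. The AP-1 letters TGACTCA or TGAGTCA, reverse complements of each other, were in 2 genes of the NRF2 list, 1 heat shock gene and 0 of the other lists, against 5.95% of all genes. A match is a description of the letters and was not tested for binding.

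Per cell, the difference in Hspa1a lay in level more than in detection. At 2000 UMIs per cell it was detected in 23.3% ± 6.08 of young and 54.8% ± 21.4 of aged fibroblasts, with 2.48 and 9.84 UMIs per positive cell. AV cells, which also express the gene, were positive at 61.0%.

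Oxidative stress genes of the NRF2 list had 4 of 15 tested members higher and 0 lower, with a median log2 of 0.79 and 13 of 15 above 0. Hmox1, heme oxygenase, which degrades heme (chr8:75093621-75100589), was at 56.7, 137 and 213 CPM in young and 1203, 678, 915 and 1081 CPM in aged mice (7.14-fold higher, log2 2.84 ± 0.39, adjusted p = 0.00172). The lowest aged mouse was above 3 times the highest young one, and the call held in every alternative fit. Gclm, the regulatory subunit of the enzyme that limits glutathione synthesis, was at 32.1, 26 and 35 against 97.8, 90.8, 38.7 and 111 CPM (log2 1.50 ± 0.28, adjusted p = 0.00926). Maff, a small Maf partner of NRF2, was at 269, 302 and 472 against 892, 1296, 670 and 919 CPM (log2 1.45 ± 0.27, adjusted p = 0.0101). Gclm did not pass without Aged A (log2 1.42, adjusted p = 0.0827), nor Maff without Young B (log2 1.36, adjusted p = 0.0582).

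Sqstm1, the autophagy receptor p62, was at 164, 262 and 279 CPM in young and 698, 497, 618 and 475 CPM in aged mice (log2 1.30 ± 0.25, adjusted p = 0.0118). The ferritin genes Fth1 and Ftl1, which store iron, did not pass (log2 0.30 ± 0.18 and 0.27 ± 0.19). The higher level was shared by other types for Sqstm1 (11 of 12 types, median log2 1.44), Hmox1 (9 of 10, 1.74) and Hspa1a (8 of 12, 1.59).

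**Figure D4:**
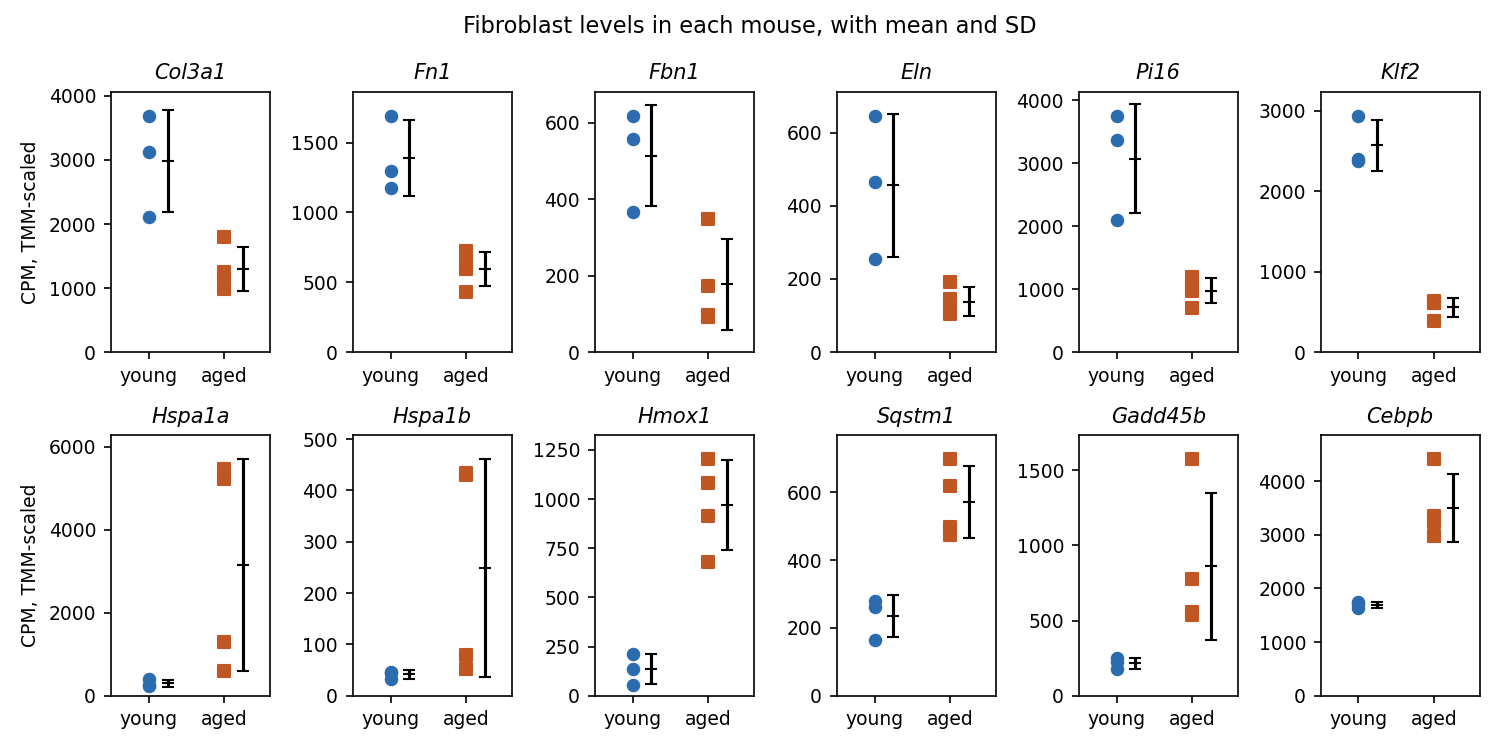
Fibroblast level of 12 genes in each mouse (TMM-scaled CPM; circles young, squares aged; bar and whiskers, mean ± SD of 3 young and 4 aged mice). Klf2 and Hmox1 separate the ages widely, and Aged B and Aged D are the highest mice for Hspa1a and Hspa1b.

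Genes of NF-κB and C/EBP signalling, which drive the inflammatory and acute phase response, had 3 of 12 tested members higher and 0 lower (median log2 0.56). Cebpb, a transcription factor, was at 1637, 1737 and 1711 CPM in young and 3351, 4409, 3234 and 2979 CPM in aged mice (log2 1.04 ± 0.20, adjusted p = 0.0105). Gadd45b, a stress signal adaptor, was at 224, 175 and 249 against 777, 1575, 554 and 535 CPM (log2 2.01 ± 0.35, adjusted p = 0.00679). Pim3, a survival kinase, was at 141, 156 and 114 against 349, 618, 451 and 303 CPM (log2 1.65 ± 0.27, adjusted p = 0.00447). All aged mice exceeded all young ones for these genes. Nfkbia, the NF-κB inhibitor, was at 1737 to 1801 against 1475 to 2478 CPM and overlapped (log2 0.10 ± 0.21). The Pim3 call was lost with thinned counts (log2 1.37, adjusted p = 0.0534). The Gadd45b call was lost without the cells that held another type's marker (log2 1.97, adjusted p = 0.0642), and that of Cebpb without Young B or Young C (log2 1.07 and 1.05, adjusted p = 0.0527 and 0.0529). None of 9 tested genes of p53 and cell cycle arrest passed (median log2 0.58, 2 at an unadjusted p under 0.05, 1 called higher by DESeq2), and Cdkn1a, the p21 inhibitor, was at log2 0.07 ± 0.22. At that unadjusted p, 619 of all 5513 genes were higher and 481 lower.

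Of 15 tested interferon-stimulated genes 3 fell, 0 rose, the median log2 was -0.83 and 2 of 15 lay above 0. Irf7, a master regulator of the type I interferon response, was at 74.5, 140 and 92.3 CPM in young and 24.9, 12.1, 12.9 and 20.2 CPM in aged mice (log2 -2.31 ± 0.37, adjusted p = 0.0043). Ifi27l2a was at 1313, 2575 and 1149 against 541, 442, 490 and 768 CPM (log2 -1.59 ± 0.29, adjusted p = 0.00926), and Lgals3bp, a secreted galectin ligand, fell by 1.63 ± 0.26 on the log2 scale (adjusted p = 0.00447). No aged mouse overlapped a young one for the 3 genes. Irf7 had only 2, 1 and 2 UMIs in Aged B, C and D, under the limit of 3 UMIs, so these levels are uncertain. The median of the list was -0.42 without Aged C and D and -1.68 without Aged A, and Ifi27l2a was lower in all 12 other types (median log2 -2.64). The Ifi27l2a call was lost without Young B (log2 -1.13, adjusted p = 0.0505), and that of Lgals3bp with thinned counts (log2 -1.61, adjusted p = 0.0731).

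Among MHC class I genes, which interferon also induces, 2 of 10 tested were higher and 0 lower (median log2 0.78). H2-T23 was at 19.6, 61.5 and 40.7 CPM in young and 242, 291, 103 and 131 CPM in aged mice (log2 2.41 ± 0.40, adjusted p = 0.00488), and H2-Q7 at 39.2, 49.7 and 29.2 against 278, 115, 116 and 90.9 CPM (log2 2.15 ± 0.36, adjusted p = 0.00489). H2-Q7 shares reads with near-identical neighbours such as H2-Q6, so its level is uncertain, and H2-T23 was at least 4-fold higher in the median of the other types. H2-K1 and H2-D1 did not pass (log2 0.70 ± 0.30 and 0.86 ± 0.28), nor did B2m, the shared light chain (log2 0.01 ± 0.20). Cd74, the invariant chain of MHC class II, was lower at 310, 58.0 and 104 CPM in young against 30.7, 12.1, 12.9 and 20.2 CPM in aged mice (log2 -2.79 ± 0.61, adjusted p = 0.0251), alongside the immune marker sums given above. Aged B, C and D held 2, 1 and 2 UMIs of Cd74, under the limit of 3 UMIs. The Cd74 call was lost when any aged mouse was left out (adjusted p = 0.064 to 0.0926) and with limma voom (0.179). H2-Eb1, a class II chain, had 313 UMIs in young and 3 in aged fibroblasts (ratio of young to aged 11.6, 95% interval for counting error 3.93 to 56.5) and 20015 against 186 UMIs in other cells, and its call was lost under the same settings.

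Signals that fibroblasts send to other cells showed few calls. Of 14 tested chemokine and cytokine genes 1 rose, Tslp, an epithelial and stromal alarmin, at 16.4, 22.5 and 18 CPM in young and 53.7, 36.3, 38.7 and 60.6 CPM in aged mice (log2 1.41 ± 0.30, adjusted p = 0.0218). It did not pass without Aged C and D, without Young A, B or C or without Aged A (adjusted p = 0.0506 to 0.174 for 1 mouse left out). The Tslp call was also lost without cells holding another type's marker (log2 1.33, adjusted p = 0.0695). Ccl2, a monocyte attractant, was at 1008, 2458 and 3917 against 8316, 2247, 4639 and 1798 CPM and overlapped widely (log2 0.80 ± 0.50), as did Cxcl1, a neutrophil attractant (log2 0.75 ± 0.50). Cxcl12 was at 273, 398 and 263 against 604, 690, 348 and 687 CPM and did not pass (log2 0.93 ± 0.26, adjusted p = 0.0738), with Aged C inside the young range.

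Among 15 tested growth factors 1 rose, Bmp2, a bone morphogenetic protein, at 19.2, 36.7 and 49.9 CPM in young and 107, 78.7, 232 and 60.6 CPM in aged mice (log2 1.64 ± 0.41, adjusted p = 0.0446). The call was lost when any mouse but Young C was left out (adjusted p = 0.0541 to 0.152) and with voom (0.0534). Cyr61, a matricellular growth regulator, was at 1061 to 1273 against 1295 to 3091 CPM (log2 0.89 ± 0.26, adjusted p = 0.0816). Figf, the older symbol of the lymphatic growth factor Vegfd, was at 91.6, 109 and 70.3 against 104, 84.8, 90.2 and 111 CPM (log2 0.14). None of 12 complement and coagulation inhibitor genes, 6 IGF-binding proteins or 7 tested Wnt and BMP antagonists passed edgeR's test, while 2, 3 and 3 of them had an unadjusted p under 0.05 and DESeq2 called 1, 0 and 0. For all 5513 genes, that limit was met by 619 higher and 481 lower ones. Of 7 hormone receptors 1 fell, Prlr, the prolactin receptor, at 34.2, 20.1 and 48.4 against 5.75, 6.06, 0 and 10.1 CPM (log2 -2.63 ± 0.58, adjusted p = 0.025), a call lost when any aged mouse was left out (adjusted p = 0.0522 to 0.174) and with voom (0.137).

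Lipid genes went both ways, with 2 of 10 tested higher and 2 lower. Apoe, a lipid carrier, was at 1067, 1143 and 784 CPM in young and 2649, 3101, 2062 and 1727 CPM in aged mice (log2 1.26 ± 0.24, adjusted p = 0.0111), and Apod, a lipocalin-type carrier, rose by log2 1.24 ± 0.28 (adjusted p = 0.0258). In the other types the median was -0.14 for Apoe and -1.79 for Apod. The Apoe call was lost without Young C (log2 1.11, adjusted p = 0.0629) and that of Apod without Young A, B or C or Aged A or B (adjusted p = 0.0624 to 0.0891). Fabp4, a fatty acid carrier of adipocytes and capillary endothelium, was at 1841, 1143 and 942 CPM in young and 142, 84.8, 38.7 and 162 CPM in aged fibroblasts (11.5-fold lower, log2 -3.53 ± 0.35, adjusted p = 7.6e-05). Cd36, a fatty acid transporter, was at 170, 114 and 51.0 against 5.75, 0, 0 and 10.1 CPM. Fabp4 was lower in all 12 other types (median log2 -2.87), with 182169 UMIs in young and 62293 in aged cells outside the fibroblasts. The lipid list had 0 genes higher and 1 lower of 9 tested when cells holding another type's marker were left out. In that fit Apoe was at log2 1.04 and Apod at log2 1.15 (adjusted p = 0.0989 and 0.131).

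Epithelial genes were among those that rose, with 3 of 13 tested markers higher and 0 lower (median log2 0.72). Krt14, a keratin of basal epithelium, was at 17.1, 15.4 and 7.76 CPM in young and 51.8, 36.3, 38.7 and 40.4 CPM in aged fibroblasts (log2 1.82 ± 0.39, adjusted p = 0.0218). Lcn2, a secreted iron-binding protein, was at 41.7, 24.9 and 61.4 against 284, 42.4, 103 and 667 CPM (log2 2.59 ± 0.61, adjusted p = 0.0344), with Aged B inside the young range. Krt17, another basal keratin, was the third (log2 2.24 ± 0.51, adjusted p = 0.0301). Krt14 did not pass without Young B, Young C or Aged A (adjusted p = 0.0617 to 0.2), Krt17 without Young B, Young C or Aged D (0.0683 to 0.102), nor Lcn2 without Young A, B or C or Aged A or D (0.0529 to 0.12) or with voom (0.106). None of the 13 passed without Aged C and D or without Aged A. The part of epithelial RNA or cells in these values was not tested.

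Fibroblasts were then set against the other stromal types, vascular endothelial cells and pericytes, to see which age differences were larger or smaller there, with the mouse as a block and an interaction term for age and cell type. Against vascular endothelial cells, the age effect of 172 of 8598 genes (2%) was higher and of 317 (3.69%) lower in fibroblasts. Of these, 58 were also called between the ages within fibroblasts. Klf2 fell in fibroblasts and was at log2 -0.45 in vascular endothelial cells (difference of the age effects -1.77 ± 0.23, adjusted p = 7.68e-05), and Eln fell in fibroblasts and rose there (log2 1.75, difference -3.44 ± 0.37, adjusted p = 5.97e-06). Hspa1a was at log2 0.26 in vascular endothelial cells, where it did not pass (difference 2.84 ± 0.55, adjusted p = 0.00313). Hmox1 rose in both, by more in vascular endothelial cells (log2 4.21, difference -1.27 ± 0.33, adjusted p = 0.0229).

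For several genes no difference between the types was detected. The difference of the age effects was -0.22 for Cebpb (adjusted p = 0.696), 0.11 for Gadd45b (adjusted p = 0.926), -1.08 for Fn1 (adjusted p = 0.228) and 1.72 for Col3a1 (adjusted p = 0.0725).

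Against pericytes, the contractile cells of small vessels, 12 of 3555 genes (0.338%) were higher and 21 (0.591%) lower in their age effect, and 12 of them were called within fibroblasts. Klf2 was at log2 -0.20 in pericytes (difference -2.05 ± 0.31, adjusted p = 0.00653). Vcam1, a vascular and stromal adhesion molecule, was at 31.7, 37.9 and 48.9 CPM in young and 194, 139, 90.2 and 70.7 CPM in aged fibroblasts (log2 1.80 ± 0.31, adjusted p = 0.00642), and it fell in pericytes (log2 -1.70, difference 3.33 ± 0.48, adjusted p = 0.00653). In vascular endothelial cells Vcam1 rose further, by log2 2.90 (difference -1.15 ± 0.32, adjusted p = 0.0346). Within fibroblasts the Vcam1 call was lost without Aged A (log2 1.42, adjusted p = 0.064) and without cells holding another type's marker (log2 1.46, adjusted p = 0.0507). Lrrc32, the GARP receptor that holds latent TGF-β, was at 11.4, 18.9 and 23.5 CPM in young and 67.1, 96.9, 64.4 and 60.6 CPM in aged fibroblasts (log2 2.00 ± 0.33, adjusted p = 0.00468).

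Lrrc32 did not pass in pericytes (log2 -0.20, difference 2.24 ± 0.40, adjusted p = 0.0139) or in vascular endothelial cells (log2 0.47, difference 1.49 ± 0.35, adjusted p = 0.0116). Kitl, the ligand of the KIT receptor, was at 33.5, 36.7 and 25.4 CPM in young and 82.5, 139, 103 and 111 CPM in aged fibroblasts. Its age effect was higher than in vascular endothelial cells (1.55 ± 0.31, adjusted p = 0.00405) and in pericytes (2.00 ± 0.38, adjusted p = 0.0204), as was that of Pim3 (1.01 ± 0.27, adjusted p = 0.029, and 1.71 ± 0.29, adjusted p = 0.01). The age effects of Hspa1a and Hmox1 were not found to differ between fibroblasts and pericytes (1.38 ± 0.51, adjusted p = 0.253, and 0.02 ± 0.41, adjusted p = 0.999).

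**Figure D5:**
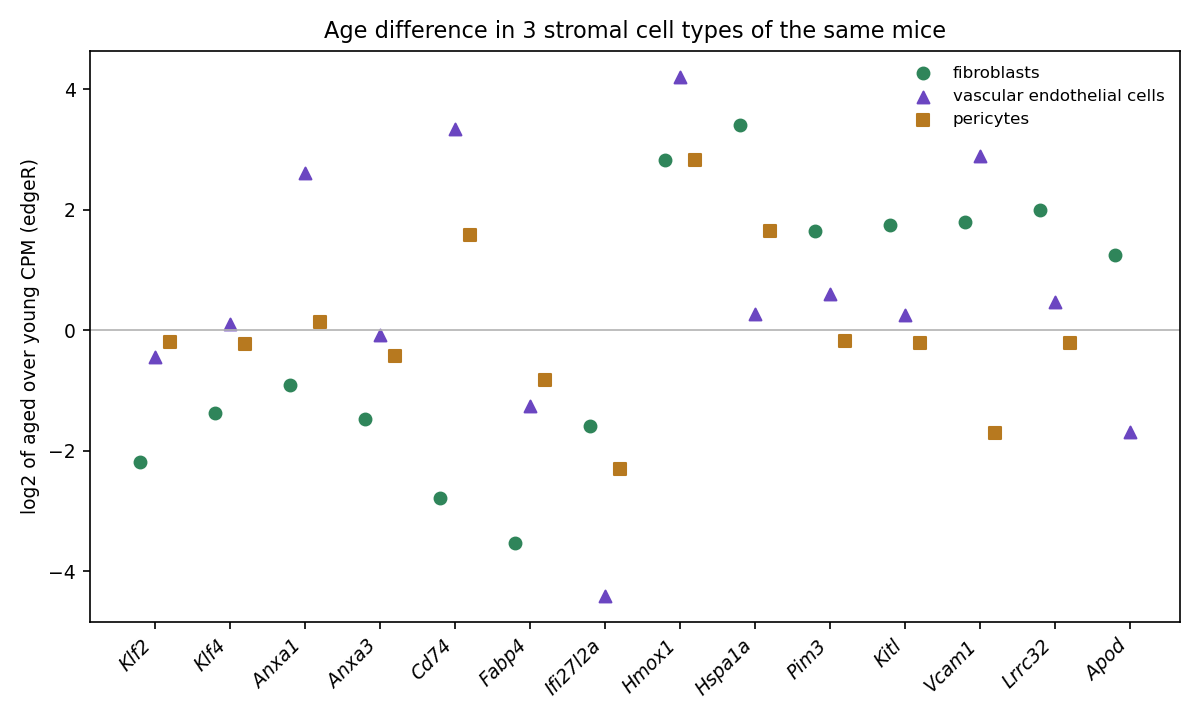
Log2 difference between aged and young mice of 14 genes in fibroblasts, vascular endothelial cells and pericytes (edgeR, each type fitted on its own sums; Apod was not tested in pericytes). Among these 3 types Klf2 is lowest in fibroblasts (-2.18, against -0.45 and -0.20). Over all 12 other types its median is -0.96. Vcam1 rises in fibroblasts and vascular endothelial cells and falls in pericytes.

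By the phases that the authors deposited, 31.0%, 22.3% and 29.3% of young and 34.7%, 34.1%, 40% and 35.3% of aged fibroblasts were in S or G2M (exact two-sided permutation test, p = 0.0286, the smallest these mice allow, adjusted p = 0.114). The ages did not overlap. Called by a UMI of Mki67 or Top2a, genes of dividing cells, the aged minus young difference was -0.572 percentage points (same exact test, p = 0.0286), opposite in sign. Such cells were rare. With 121, 41, 15 and 17 fibroblasts in Aged A, B, C and D, few or none would be found there at a rate of this size. The second count therefore cannot decide the direction. With an adjusted p of 0.114, no difference in cycling was read from the phases.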

How the data were processed

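Single-cell RNA libraries (10x Chromium 3′ v2, 1 per mouse) came from 3 young and 4 aged mice. The authors aligned reads to mm10 with Cell Ranger 2.0 (submitters' processing notes), kept cells within set ranges of UMIs, detected genes and mitochondrial share, named the cell types from clusters, and deposited UMI counts per gene and cell without normalization, beside a table of the mouse, cell type and phase of each cell. This table also held the fraction of mitochondrial UMIs and the S and G2M scores, which the authors computed with Seurat before deposition. The 27998 rows of counts were summed to 27942 symbols, since 56 symbols stood on 2 rows each. How reads shared by near-identical genes entered these counts was not tested.

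Fibroblast counts were summed per mouse, filtered with filterByExpr, TMM-scaled and compared between the ages with edgeR 4.0.16 (quasi-likelihood test, Benjamini-Hochberg adjusted p under 0.05, at least 1.5-fold). CPM for each mouse are TMM-scaled in comparisons of the ages and plain elsewhere. The age effects of fibroblasts were compared with those of vascular endothelial cells and of pericytes with an interaction term and the mouse as a block. Cell measures were compared with exact two-sided permutation tests. Detection was read after thinning each cell to 2000 UMIs. For the other 12 types, pooled CPM of the ages were compared where at least 20 UMIs were present, and a median was taken over at least 3 types. Scrublet (scanpy 1.11.5, expected rate 0.06, each mouse alone) marked 73 cells (0.533%), 9 of them fibroblasts, which is too low a share to be trusted, and these cells were kept. Intervals cover counting error only.

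Depth was 78978 to 4945184 fibroblast UMIs per mouse. On simulated counts of 5513 genes the age fit recovered 24.3% of 107 genes changed by log2 1 and 77.4% of 93 changed by log2 2, with 7 false calls. The interaction fits recovered 48% (vascular endothelial cells, 4031 genes) and 77.5% (pericytes, 1294 genes) of 200 genes changed by log2 2. These interaction simulations held fewer genes than the 8598 and 3555 tested, and their dispersion and mouse effect were set by hand. Their rates therefore need not hold for the tests reported.

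Named genes were drawn from the 10 called genes of largest change in each direction whose ages do not overlap, the fibroblast genes named in the study's text, up to 4 called and 3 highest members of each of 38 gene lists (of the highest, uncalled members are named only in part), and the 5 largest of each interaction in each direction that were also called in fibroblasts. Of these, 1 gene and its list are not reported here. Genes outside this rule (those of the fibroblast-restricted set, C1ra, C1s1, Csn1s1, Csn2, Figf and Kitl) were named after their values were seen. Members and lists were chosen with earlier results of these data known, and no set test was run. Of the list members 398 were in the matrix, and the other 2 were not analysed here. Alternatives were DESeq2 1.42.0, limma 3.58.1 voom, RLE factors, no filter, other call rules, fits without ribosomal, pseudogene and mitochondrial genes, without doublets or cells with other types' markers, thinned sums, a block of the label letter and each mouse left out. Promoters are RefSeq (GRCm38.p6) and gene positions GENCODE vM21 (GRCm38). R 4.3.3 and scipy 1.17.1 were used.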

Additional observations from a re-analysis of the deposited data

Results flagged for a closer look

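Of 110 values of aged fibroblasts checked (called genes named in the text and summed lists), 13 had 1 of the 4 aged mice apart from the other 3 by Dixon's criterion at its 95% critical value, which chance reaches in about 1 of 20 groups. That rate does not hold where the other 3 mice are at 0, since any single count then meets the criterion. Aged A had the most fibroblast UMIs of the aged mice (580088, others 78978 to 173823). Aged A stood apart as the highest mouse for H2-Q6 (340 CPM, others 70.7 to 116) and H2-Q7 (278 CPM, others 90.9 to 116), and with 1 UMI, 1.92 CPM each, for Atp6v0e2, Gpihbp1, Rbp7 and Retnla, which were at 0 in the other aged mice. Its summed adipocyte and red cell markers, 6.90 CPM each, also stood alone above 0. Aged B was the highest mouse for the summed proteoglycans (20947 CPM), immediate early genes (37245 CPM) and Col15a1-state markers (2428 CPM). Aged C was the highest for Csprs (64.4 CPM) and the lowest for Klf2 (387 CPM).

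The age effect differed between cell types by the interaction test for the following genes, given as the log2 difference of the effects. Against vascular endothelial cells it was higher in fibroblasts for Fcgr2b (7.32), Hsd11b1 (6.72), Rbp4 (5.87), Ramp3 (4.88) and Clca3a1 (4.54), and lower for Cldn11 (-11.15), Cd74 (-6.45), Serpina3n (-5.77), Atp6v0e2 (-4.59) and Rbp7 (-4.37). Against pericytes it was higher for Clca3a1 (5.71), Pianp (5.34), Vcam1 (3.33), H2-Q6 (2.36) and Lrrc32 (2.24), and lower for Rbp7 (-5.10), Cd74 (-4.97), Cldn5 (-4.50), Fabp4 (-2.64) and Klf2 (-2.05). Clca3a1, Cldn11, Pianp, Rbp7, Cldn5 and Atp6v0e2 had 0 to 3 UMIs in the fibroblasts of 1 age, so their values depend on the prior count. Within fibroblasts the Hsd11b1 call was lost without cells holding another type's marker (log2 1.27, adjusted p = 0.12). It was also lost without Young A, B or C or Aged A or B (adjusted p = 0.0877 to 0.137). Rbp4, the retinol carrier, was at 17.8, 20.1 and 15.9 CPM in young and 63.3, 66.6, 77.3 and 40.4 CPM in aged fibroblasts.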

How the results depend on the processing

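The counts of 113 higher and 61 lower genes depended on the processing, and 0 of the 68 named called genes changed direction, while 13 kept their call under every alternative. The counts were 156 and 86 with DESeq2, 164 and 71 with voom, 115 and 62 with RLE factors, 95 and 57 without ribosomal, pseudogene and mitochondrial genes, and 109 and 62 without doublets. With no filter they were 252 and 327 of 16193 genes (the median of all genes shifted by -0.21), with a change in the same direction above a minimum fold asked also of every pair of mice 68 and 58, with thinned sums 23 and 28 of 1123 genes, and without cells holding another type's marker 72 and 30 of 3805. Leaving out 1 mouse gave 42 (without Aged A) to 111 higher and 26 (without Young B or Aged A) to 45 lower genes. Chosen after seeing the data, the count without Aged C and D was 84 and 30. The replicate block (the label letter as a block) gave 19 and 11. Animals that shared a letter did not deviate together (r = -0.160, -0.0746 and 0.0531, against -0.0965 to 0.119 for other pairs), and Aged D has no partner, so the letters pair no samples. The 489 genes whose age effect differed from vascular endothelial cells were 265 with no block of the mouse, 697 with no filter and 391 to 519 with 1 mouse left out, and the 33 against pericytes were 12, 83 and 9 to 47. The aged minus young difference in median genes per fibroblast (-2.67) was 6.34 as a mean over cells and -87.5 to 73.5 with 1 mouse left out. The difference in S or G2M cells (8.52 percentage points) was 5.90 to 10.2 with 1 mouse left out, where p could not fall under 0.0667, and -0.572 when called by Mki67 or Top2a. Cells with a UMI of these 2 genes were too rare to be counted among the few aged fibroblasts. The causes were not tested. Depth limits aged mice most, since 3 UMIs were worth 38.0 CPM in Aged C.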

Other observations

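Metallothionein genes, which bind zinc and copper, varied more between mice than between ages. Mt1 was at 9983, 17477 and 17964 CPM in young and 27796, 10301, 15758 and 7009 CPM in aged fibroblasts, and Mt2 at 7443, 12208 and 13436 against 24226, 7697, 17421 and 8524 CPM, with neither past the edgeR test (log2 0.01 ± 0.37 and 0.39 ± 0.36). IGF-binding proteins had 0 of 6 tested genes called in either direction. Igfbp6, among the genes most restricted to fibroblasts, was at 3854, 4160 and 3652 against 2010, 3307, 3247 and 2636 CPM (log2 -0.48 ± 0.21, adjusted p = 0.221), and the ages did not overlap. Igfbp7 was at 1736, 1447 and 1702 against 1859, 3706, 1946 and 2151 CPM (log2 0.57 ± 0.25, adjusted p = 0.224). Among Wnt antagonists, Sfrp2 was at 602, 663 and 384 against 416, 127, 232 and 232 CPM and did not pass (log2 -1.06 ± 0.33, adjusted p = 0.0988). Of the Schwann cell markers 1 was tested, S100b (log2 -0.74 ± 0.52), and did not pass. Red cell markers summed to 15.0 to 107 CPM in young fibroblasts and to 0 in 3 of the 4 aged mice. Of 15 fibroblast identity genes 0 rose and 2 fell (Col3a1 and Fn1), with a median log2 of -0.12, and Pdgfra was at 179, 167 and 157 against 228, 224, 116 and 162 CPM (log2 0.20 ± 0.24, adjusted p = 0.711). Pdgfrb, a receptor shared with pericytes, was at 129, 148 and 143 against 104, 188, 64.4 and 80.8 CPM, and Fap, a fibroblast surface protease, at 41.7, 45 and 52.6 against 51.8, 96.9, 64.4 and 30.3 CPM, and both overlapped and did not pass (log2 -0.29 ± 0.29 and 0.38 ± 0.30, adjusted p = 0.640 and 0.540).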
